A study of Homo sapiens with 12 samples.

Results

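The genes described here are 10 interleukins and colony-stimulating factors outside the IL-1 and IL-6 families, namely CSF1, IL34, CSF2, CSF3, TSLP, IL7, IL15, IL12A, IL24 and IL32. They were taken by symbol from the 57500 genes of the deposited table. The data are RNA sequencing counts of MRC5 cells, a line of human embryonic lung fibroblasts, with 12 libraries in 4 groups of 3. Prol cells were proliferating, and Sen(IR) cells had been made senescent by 20 Gy of X-rays and, per the methods, were collected 10 to 12 days later. In Sen(IR)+UK5099 the irradiated cells also received UK5099 (100 µM), which blocks the mitochondrial pyruvate carrier, and in Sen(IR)+CTPI2 they received CTPI2, which blocks the citrate carrier SLC25A1. Both inhibitors were added 1 day after irradiation. The methods give 15 or 30 µM for CTPI2 without saying which was sequenced, so the inhibitors are set side by side at doses that differ. All groups come from 1 cell line, and a proliferating group with either inhibitor was not analysed here.

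Senescent cells stop dividing and release a mixture of cytokines, growth factors and proteases called the senescence-associated secretory phenotype (SASP). Colony-stimulating factors act on blood cells: M-CSF (CSF1) and IL-34 share the receptor CSF1R on macrophages, GM-CSF (CSF2) acts through CSF2RA and CSF2RB, and G-CSF (CSF3) acts through CSF3R. TSLP and IL-7 share the receptor chain IL7R, IL-15 is held at the cell surface by IL15RA, IL12A encodes the p35 chain of IL-12 and IL-35, IL-24 belongs to the IL-10 family, and IL-32 is a proinflammatory cytokine. Many such genes are switched on through NF-kB, and many of their messenger RNAs are short-lived because of AU-rich elements in the 3′UTR.

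Library totals were 20597736 to 28245693 counts, and levels are given as counts per 1000000 (CPM) after TMM scaling, a normalization of library composition. All 10 fibroblast markers passed the low-count filter in these cells. Their summed level was 21430 to 21967 CPM in Sen(IR) and 11254 to 11797 CPM with UK5099. The difference lay mainly in collagens (COL1A1 at 34% of its Sen(IR) level, COL1A2 at 48.1%, COL3A1 at 29.8% and COL6A1 at 44.9%). PDGFRA at 51.8% and THY1 at 59.1% were lower as well, while DCN stood at 99.9%, LUM at 104%, PDGFRB at 103% and VIM at 90.8%. Of 14 leukocyte markers only CD14 and CD68 passed, and CD2, CD3D and TPSAB1 had no count. The leukocyte markers together summed to between 1.12 and 1.83 CPM in Prol, between 5.29 and 6 in Sen(IR), between 4.22 and 4.67 with UK5099, and between 5.71 and 7.13 with CTPI2. The part of these shifts in the results below was not tested. In pooled RNA, fewer cells of a type and less RNA per cell cannot be told apart. The proliferation gene MKI67 averaged 235 CPM in Prol, 11 in Sen(IR), 0.949 with UK5099 and 12.4 with CTPI2, and the cell cycle inhibitor CDKN1A averaged 315 CPM in Prol and 1054 CPM in Sen(IR). The study's legends speak of independent experiments or conditions, but the labels name no separate cultures, so p-values measure the spread between these samples, which may in part be technical.

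Sequences are shown first for the members whose control regions carry letters that recur in cytokine genes. CSF2 has the densest AU-rich stretch of the 10 genes: its 3′UTR holds 8 ATTTA pentamers in 318 bases, 3 of them inside overlapping copies of the nonamer TTATTTATT, which occurs in the 3′UTR of 8.50% of 19253 protein-coding genes. The core of that stretch (bases 225 to 254 of the 3′UTR, GENCODE v44) is given 5′ to 3′ with the nonamers in capitals.
CSF2: aaatatTTATTTATTTATTTATTtaagttc
The 3′UTR of IL12A held 8 pentamers in 460 bases, that of CSF3 7 in 854 and that of TSLP 7 in 1952, all without the nonamer. IL32 and IL34 had no pentamer, CSF1, IL7 and IL15 had 4 each and IL24 had 3. At least 3 pentamers were present in 41.8% of protein-coding genes.

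Promoters from RefSeq (GRCh38.p14) were matched for 5 of the 10 members, CSF2, TSLP, IL12A, IL24 and IL32, and the 250 bases before each listed start were searched on both strands for 6 motifs. These were the NF-kB consensus, the AP-1 site TGANTCA, the cytokine element GAGATTCC, the C/EBP site TTGCNNAA, an interferon-response consensus (GAAA and GAAA, 2 free bases apart) and the TATA box TATAAA. RefSeq listed 3 starts for TSLP and 2 for IL32, so 8 windows were searched in all, whereas each share over all promoters below counts 1 window per gene, the first listed. Matches are shown for the genes that the results below turn on, 5′ to 3′ on the gene's strand, with the match in capitals. In CSF2 (chr5:132073539-132073788, + strand) the match is GAGATTCC, beginning 101 bases before the start, which 0.780% of 27305 promoters hold. In IL12A (chr3:159988585-159988834, + strand) it is the NF-kB consensus at 44 bases, which 9.57% of promoters hold. In IL24 (chr1:206897193-206897442, + strand) it is the interferon-response consensus on the opposite strand at 83 bases, which 3.07% hold.
CSF2: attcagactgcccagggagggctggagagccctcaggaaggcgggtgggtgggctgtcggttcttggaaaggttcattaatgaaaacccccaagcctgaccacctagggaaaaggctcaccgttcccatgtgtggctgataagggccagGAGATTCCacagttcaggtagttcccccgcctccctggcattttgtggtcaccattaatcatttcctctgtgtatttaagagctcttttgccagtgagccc
IL12A: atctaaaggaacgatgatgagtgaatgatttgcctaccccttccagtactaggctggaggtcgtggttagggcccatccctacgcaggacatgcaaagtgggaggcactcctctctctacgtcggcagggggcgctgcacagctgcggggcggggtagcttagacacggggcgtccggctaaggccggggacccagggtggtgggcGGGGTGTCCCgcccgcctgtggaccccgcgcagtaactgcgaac
IL24: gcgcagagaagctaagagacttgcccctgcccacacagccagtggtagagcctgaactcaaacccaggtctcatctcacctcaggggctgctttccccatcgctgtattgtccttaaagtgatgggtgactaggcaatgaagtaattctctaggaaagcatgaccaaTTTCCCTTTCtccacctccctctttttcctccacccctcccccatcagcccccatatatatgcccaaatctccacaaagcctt
TSLP and IL32 also hold the NF-kB consensus, in windows that overlap exons of other transcripts of the same gene, so only 30 bases round each are shown (TSLP, chr5:111071512-111071541; IL32, chr16:3065295-3065324; both + strand). Each match lies in 1 of the gene's windows, which for TSLP is not the window just before the gene's first base. The IL32 window runs past the annotated first base of the gene (3065297). The IL32 match lies after that base, and 28 of the 30 bases shown are exon bases. The IL32 capitals are 2 overlapping matches, 1 on each strand. TSLP also held TATAAA, which 11.1% of promoters hold, and no match to the AP-1 or C/EBP letters lay in any of these windows (6.60% and 9.13% of promoters).
TSLP: aggaaggtgaGGGAAATTCCtgatgacttt
IL32: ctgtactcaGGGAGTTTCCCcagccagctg

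Every one of the 10 members had counts in Sen(IR), but their levels spanned a wide range. Per kilobase of exon, which allows genes to be compared, CSF1 was the highest at 25.6 CPM per kb ± 0.558 (SD, n = 3), and IL12A (10.3 ± 0.175) and TSLP (9.45 ± 0.739) followed at levels whose libraries overlapped. IL32 stood at 2.63 ± 0.290 CPM per kb and IL15 at 1.57 ± 0.0247, each apart from its neighbours. Then came IL24 (1.17 ± 0.275), CSF2 (0.968 ± 0.474) and CSF3 (0.412 ± 0.115), each overlapping the next. IL7 (0.220 ± 0.0252) and IL34 (0.146 ± 0.0371) closed the order. The 5 lowest genes had between 5 and 57 counts per Sen(IR) library, so a value of theirs rests on few molecules. A count of 3, used as the floor of detection, corresponded to 0.117 to 0.141 CPM in the 4 groups (counting error only).

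**Figure D1:**
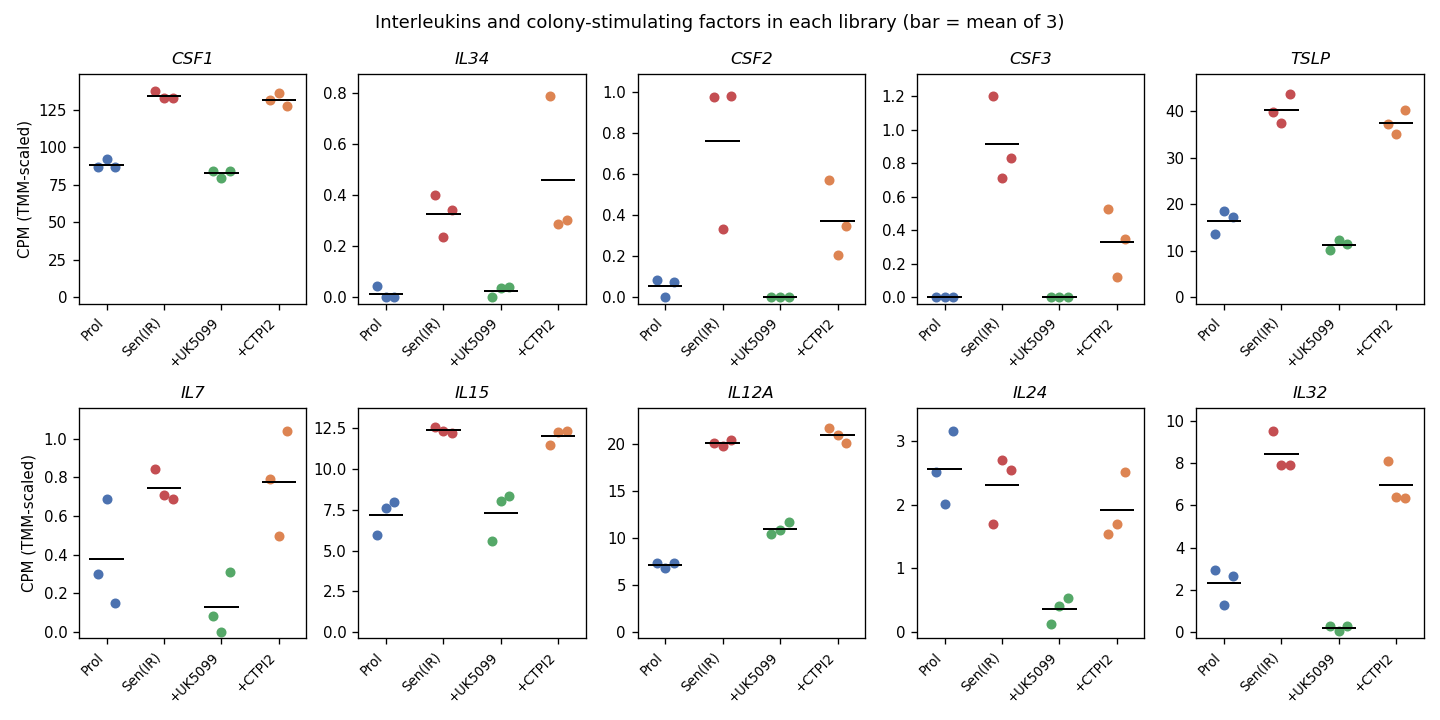
Level of each of the 10 genes (vertical axis, TMM-scaled CPM on a linear axis with its own range per gene) in the 12 libraries, 3 points per group with a bar at the mean. In all panels but IL24 the Prol and UK5099 means lie below the Sen(IR) mean, and CSF2 and CSF3 have no count in any UK5099 library.

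All 10 members are protein-coding genes, and their counts cover their exons (GRCh38, GENCODE v44). The colony-stimulating factors and IL-34 are encoded by CSF1 (chr1:109910242-109930992, + strand), IL34 (chr16:70579895-70660682, + strand), CSF2 (chr5:132073789-132076170, + strand) and CSF3 (chr17:40015361-40017813, + strand). The lymphocyte and barrier cytokines are TSLP (chr5:111070062-111078026, + strand), IL7 (chr8:78675743-78805523, - strand), IL15 (chr4:141636583-141733987, + strand) and IL12A (chr3:159988835-159996019, + strand), and the others are IL24 (chr1:206897443-206904139, + strand) and IL32 (chr16:3065297-3082192, + strand).

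The first comparison asked how the cytokine genes differed between irradiated senescent and proliferating cells. Of the 9 members that passed the filter, 7 were higher in Sen(IR) and 0 were lower (edgeR quasi-likelihood test). A gene was called where its Benjamini-Hochberg adjusted p was below 0.05 and its log2 fold change lay more than 0.5 from 0. Among all 16251 genes tested 24.8% were called higher and 22.4% lower, 47.2% in either direction. In 7 of the 9 members the 2 groups had no overlapping libraries, which was so for 70.9% of all genes. The median log2 fold change was 1.29 over the 9 members and 0.01 over all genes tested. IL34 did not pass the filter. CSF2 and CSF3 passed it only through the senescent libraries without UK5099, and IL7 through those and 1 Prol library, so the filter itself favoured their places in these counts, here and in the comparisons of UK5099 with Sen(IR) and with CTPI2. Of the 6 other members 5 were called higher in Sen(IR), with a median of 1.04.

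Among the ligands of macrophages and granulocytes, CSF1 was already abundant in Prol. Its levels were 86.7, 91.9 and 86.5 CPM in the Prol libraries and 138, 132 and 133 CPM in the Sen(IR) libraries. The groups did not overlap, and CSF1 rose 1.52-fold (log2 0.60, SE 0.0514, adjusted p = 5.55e-10). IL34, the other CSF1R ligand, had 1, 0 and 0 counts in Prol and 9, 5 and 7 in Sen(IR), a ratio of 24.2 with an exact 95% counting interval of 3.89 to 999.8. CSF2 had 2, 0 and 2 counts in Prol and 22, 7 and 20 in Sen(IR). Its libraries did not overlap, and the ratio of the totals was 14.1 (exact 95% counting interval 5.17 to 53.8, adjusted p = 0.000124). CSF3 had no count in any Prol library and 27, 15 and 17 counts in Sen(IR). It was at least 7.46-fold higher in Sen(IR) against a floor of 3 counts per library (adjusted p = 3.82e-06). CSF2 and CSF3 thus lay at or below the floor in Prol.

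Among the lymphocyte and barrier cytokines, IL12A and TSLP showed the clearest rises. IL12A measured 7.33, 6.78 and 7.39 CPM in Prol and 20.1, 19.8 and 20.5 CPM in Sen(IR). The rise was 2.81-fold (log2 1.49, SE 0.0881, adjusted p = 1.01e-12), and the groups lay far apart. IL12B, which encodes the p40 chain that pairs with p35 in IL-12, had 9 counts over the 12 libraries together. TSLP measured 13.6, 18.6 and 17.3 CPM in Prol and 39.8, 37.4 and 43.7 CPM in Sen(IR). It rose 2.44-fold without overlap (log2 1.29, SE 0.0990, adjusted p = 9.80e-11). IL15 measured 5.92, 7.59 and 7.99 CPM in Prol against 12.6, 12.3 and 12.2 CPM in Sen(IR). Its rise was 1.72-fold (log2 0.78, SE 0.131, adjusted p = 1.61e-05), the second smallest of those called.

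IL7 did not pass the test. It had 7, 16 and 4 counts in Prol and 19, 15 and 14 in Sen(IR), so the second Prol library lay among the senescent ones (log2 1.01, SE 0.548, adjusted p = 0.108). Without that library the log2 fold change was 1.75 and the adjusted p 0.0175. About 16.3% of the exon bases of IL7 are shared with genes on the opposite strand, ZC2HC1A among them, and whether the counting used strand is not stated.

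IL32 and IL24 went separate ways. IL32 measured 2.94, 1.29 and 2.67 CPM in Prol and 9.51, 7.91 and 7.89 CPM in Sen(IR), a rise of 3.65-fold (log2 1.87, SE 0.211, adjusted p = 5.58e-08). IL24 measured 2.51, 2.02 and 3.16 CPM in Prol and 1.69, 2.70 and 2.55 CPM in Sen(IR). These ranges overlapped, and the difference was −0.16 on the log2 scale (95% interval −0.72 to 0.40, adjusted p = 0.616), with a sign that turned when the third Prol or the first Sen(IR) library was left out (0.02 and 0.03). For IL24, 41.6% of the exon bases lie opposite FCMR exons, so its counts are uncertain in the same way as those of IL7.

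The second comparison asked what blocking pyruvate import did to these genes in senescent cells. All 9 members that passed the filter were lower in Sen(IR)+UK5099 than in Sen(IR), and their libraries did not overlap in any of the 9. Among all genes tested 12.1% were called lower and 8.76% higher, 20.8% in either direction, and 56.6% had groups that did not overlap. The median log2 fold change was −2.48 over the 9 members and 0.01 over all genes tested. Leaving out CSF2, CSF3 and IL7, which the filter favoured, 6 of 6 were called lower, with a median of −1.35. The sizes differed widely between members, from 1.62-fold lower for CSF1 to 39.6-fold lower for IL32. The Sen(IR) libraries are the reference here as well as 1 side of the first comparison, so the 2 sets of values are not independent. Other measures moved between the same libraries. Mitochondrial genes took a larger part of the counts with UK5099 (3.81 to 4.23%) than without it (2.78 to 3.21%). The summed epithelial markers went from between 24.8 and 27.5 CPM to between 16.4 and 17.9, and the endothelial ones from between 1.42 and 1.96 CPM to between 0.736 and 1.08. The genes within each sum did not move together. Of the epithelial markers that passed the filter, KRT18 was called lower, at 46.3% of its Sen(IR) level. KRT19 at 55.9%, KRT8 at 101% and EPCAM at 159% were not called. Of the endothelial markers, KDR was called lower, at 29.1%, and VWF stood at 99.1%. The proliferation genes MKI67, TOP2A and CCNA2 were 11.7-fold, 5.41-fold and 1.69-fold lower, and LMNB1 was 3.28-fold lower. CDKN1A stood at 104% of its Sen(IR) level. The part of these measures in the members' differences was not tested.

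**Figure D2:**
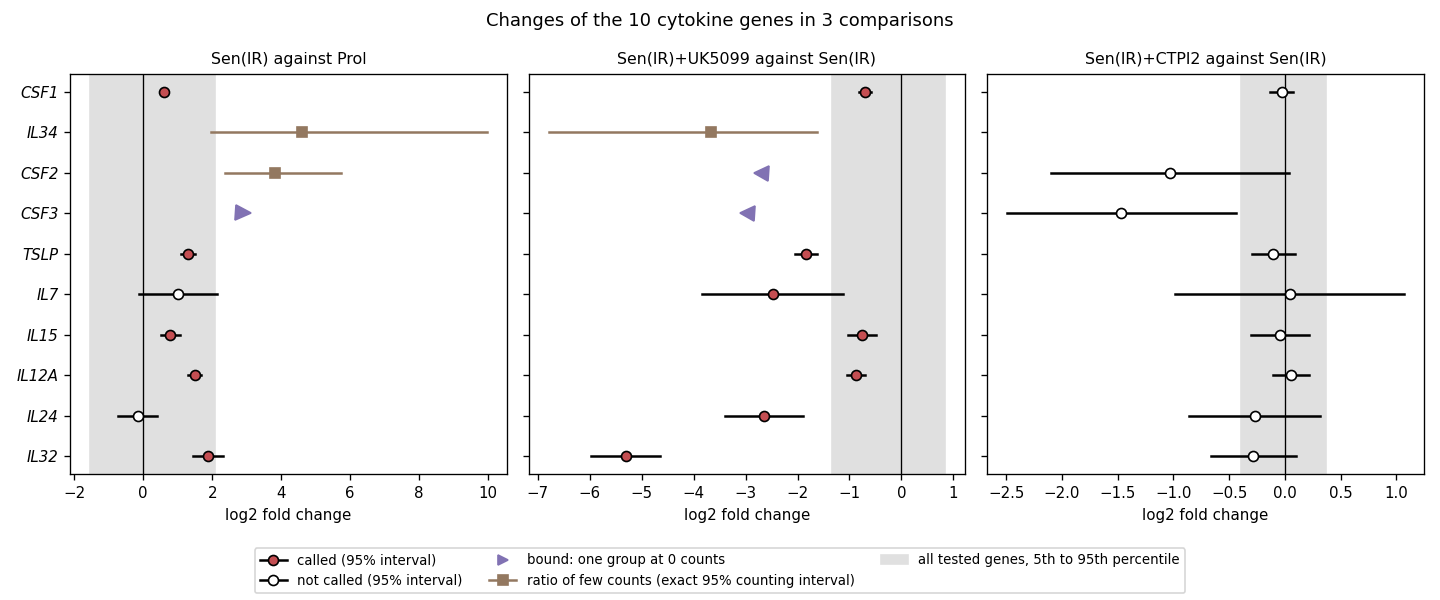
Log2 fold change (horizontal axis) of each gene in 3 comparisons, as points with 95% intervals (filled where called), triangles for bounds where one group had 0 counts, and squares for ratios of few counts with exact counting intervals; the grey band holds the 5th to 95th percentile of all tested genes. With UK5099 every symbol lies below 0, from −0.70 for CSF1 to −5.31 for IL32, and with CTPI2 no member was called. The horizontal axes have different ranges.

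IL32 changed the most among the members with enough counts for a fitted fold. Its UK5099 libraries held 0.290, 0.0741 and 0.271 CPM, which is 7, 2 and 7 counts, against 214, 167 and 161 counts in Sen(IR). The fall was 5.31 on the log2 scale (SE 0.318, adjusted p = 5.69e-12), leaving 2.52% of the Sen(IR) level. IL24, which did not differ between Prol and Sen(IR) beyond its spread, had 3, 11 and 14 counts with UK5099 against 38, 57 and 52 in Sen(IR). It was 6.28-fold lower (log2 −2.65, SE 0.364, adjusted p = 3.13e-06).

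For the granulocyte factors the UK5099 libraries were empty. CSF2 and CSF3 each had 0 counts in all 3 of them, which with the floor of 3 counts makes CSF2 at least 6.51-fold lower (adjusted p = 2.11e-05) and CSF3 at least 7.81-fold lower (adjusted p = 8.79e-06) than in Sen(IR). IL34 had 0, 1 and 1 counts with UK5099 against 21 in the Sen(IR) libraries together, 12.6-fold fewer per library size (exact 95% counting interval 3.09 to 111). CSF1 moved far less. It measured 84.4, 79.4 and 84.3 CPM with UK5099, 61.6% of its Sen(IR) level (log2 −0.70, SE 0.0515, adjusted p = 1.89e-10).

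TSLP was the most reduced of the well-counted lymphocyte and barrier cytokines. It measured 10.1, 12.4 and 11.4 CPM with UK5099, 3.56-fold below Sen(IR) (log2 −1.83, SE 0.103, adjusted p = 1.84e-12). IL12A measured 10.4, 10.9 and 11.7 CPM, 1.83-fold below Sen(IR) (log2 −0.87, SE 0.0833, adjusted p = 1.44e-08). IL15 measured 5.58, 8 and 8.36 CPM, 1.68-fold below (log2 −0.75, SE 0.130, adjusted p = 5.86e-05). The first UK5099 library was the lowest of the 3 for each of these genes. IL7 had 2, 0 and 8 counts with UK5099 and was 5.57-fold lower (log2 −2.48, SE 0.652, adjusted p = 0.00358). The third UK5099 library held 8 of those 10 counts, and without it the log2 fold change was −4.08.

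UK5099 also left the members at different places relative to proliferating cells. Of the 9 tested, 1 was called higher and 3 lower in Sen(IR)+UK5099 than in Prol, where 26.9% of all genes were called higher, 26.2% lower and 53.1% in either direction. The libraries did not overlap for 5 of the 9 and for 74.5% of all genes. CSF2, CSF3 and IL7 passed the filter only with the help of libraries outside this comparison, and CSF2 and CSF3 were at or under the floor in both groups. Leaving these genes out, 1 of 6 members was called higher and 3 lower, and the libraries did not overlap for 5 of the 6. IL12A stayed 1.53-fold above Prol (log2 0.62, SE 0.0915, adjusted p = 2.75e-06). IL32 was 10.9-fold below Prol (log2 −3.44, SE 0.384, adjusted p = 3.86e-08) and IL24 7.01-fold below (log2 −2.81, SE 0.354, adjusted p = 2.51e-07). TSLP was 1.46-fold below Prol (log2 −0.54, SE 0.108, adjusted p = 0.000113), close to the fold limit. The TSLP call was lost without the second Prol library (−0.45), without the first UK5099 library (−0.47) and with upper-quartile scaling (−0.40).

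CSF1 and IL15 lay near their Prol levels. CSF1 differed by −0.10 (95% interval −0.20 to 0.01, adjusted p = 0.101) although the libraries did not overlap, and with upper-quartile scaling the sign turned (0.04). IL15 differed by 0.03 (95% interval −0.25 to 0.31, adjusted p = 0.847), with a sign that turned when the first Prol library, the second UK5099 library or the third UK5099 library was left out. IL7 did not pass the test against Prol (log2 −1.47, SE 0.719, adjusted p = 0.0708), but it did without the third UK5099 library (−3.08, adjusted p = 0.00702), without the third Prol library (−1.88, adjusted p = 0.0248), by DESeq2 (−1.51, adjusted p = 0.0456) and with no filter (−1.48, adjusted p = 0.0385). CSF2, CSF3 and IL34 were at or under the floor in both groups, so no fold is given.

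**Figure D3:**
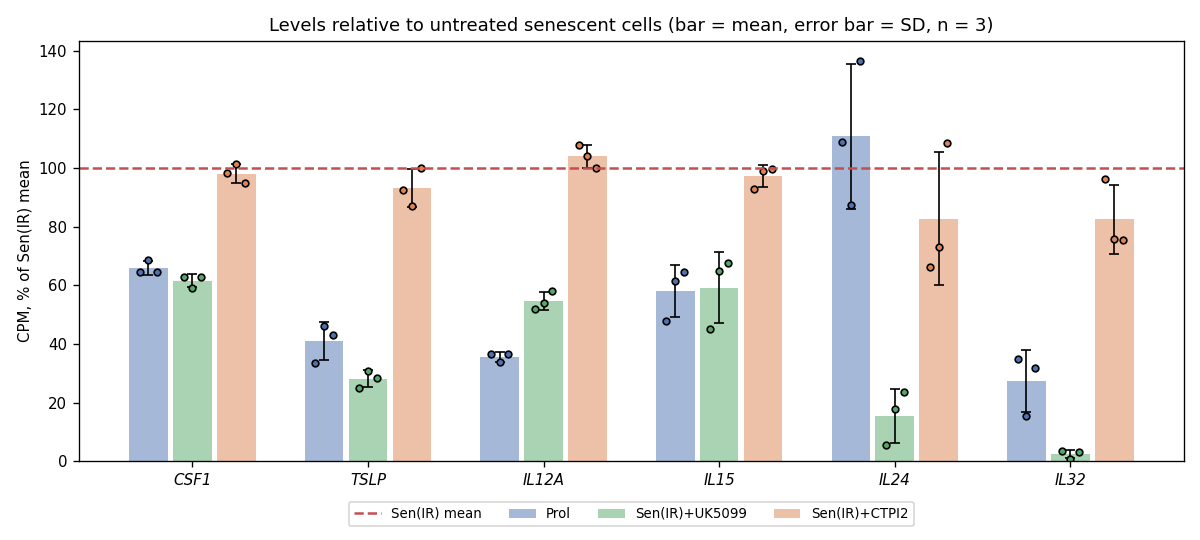
Levels of the 6 members with the most counts in Prol, Sen(IR)+UK5099 and Sen(IR)+CTPI2, as a percentage of the Sen(IR) mean CPM (dashed line at 100%); bars are means, error bars SD over 3 libraries and points single libraries. The UK5099 bar stands beside the Prol bar for CSF1 (61.6 and 65.8%) and IL15 (59.2 and 58.0%), above it for IL12A (54.6 and 35.6%) and below it for TSLP (28 and 40.9%), IL24 (15.5 and 111%) and IL32 (2.51 and 27.3%).

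The third comparison asked the same of blocking citrate export. With CTPI2, 0 of the 9 tested members were called by edgeR, and 0 by DESeq2. Of all genes tested 0.166% were called in either direction, 0.148% lower and 0.0185% higher. One member, CSF3, had an unadjusted p under 0.05, as did 7.27% of all genes. The median log2 fold change was −0.10 over the 9 members and 0.00 over all genes. CSF3 had 12, 3 and 8 counts with CTPI2 against 27, 15 and 17 in Sen(IR). These libraries did not overlap, which held for 15.1% of all genes, and the difference was −1.47 on the log2 scale (SE 0.488, adjusted p = 0.379). CSF2 had 13, 5 and 8 counts against 22, 7 and 20, a difference of −1.03 (95% interval −2.10 to 0.04, adjusted p = 0.718).

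For the better-counted members the intervals were narrow enough to bound the difference. CSF1 measured 132, 136 and 127 CPM with CTPI2 (log2 −0.03, 95% interval −0.13 to 0.08). TSLP measured 37.2, 35 and 40.3 CPM (log2 −0.10, 95% interval −0.29 to 0.09). For IL12A, at 21.7, 20.9 and 20.2 CPM, the interval was −0.11 to 0.22. These 3 intervals stayed inside the fold limit of 0.5 on either side. IL15 measured 11.5, 12.2 and 12.3 CPM, with an interval of −0.30 to 0.22, also inside the limit. IL32 measured 8.11, 6.39 and 6.36 CPM (interval −0.67 to 0.10) and IL24 1.53, 1.69 and 2.51 CPM (interval −0.86 to 0.32), and both intervals reached past the limit on the lower side. IL7 had 18, 12 and 24 counts, and its interval of −0.98 to 1.07 was too wide to bound it. IL34 had 18, 7 and 7 counts with CTPI2, so its range held that of Sen(IR) except for the library with 5 counts.

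Set directly against each other, the groups with the 2 inhibitors differed in all 9 tested members, each lower with UK5099. Among all genes tested 11.7% were called lower, 8.20% higher and 19.9% in either direction, and 53.6% had groups that did not overlap, as all 9 members did. IL32 was 32.6-fold lower with UK5099 than with CTPI2 (adjusted p = 2.52e-11), IL24 5.20-fold (adjusted p = 1.72e-05), TSLP 3.32-fold (adjusted p = 5.80e-12) and CSF1 1.59-fold (adjusted p = 4.47e-10). CSF2 was at least 3.19-fold and CSF3 at least 2.83-fold lower against the floor. The median was −2.38, or −1.67 with CSF2 and CSF3 set to their bounds, and −1.33 over the 6 members that the filter did not favour. These groups differ in dose as well as in target.

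The receptor chains of these cytokines were mostly below the filter in these cells. Of 16 receptor genes 5 passed the filter, IL7R, IL15RA, IL20RB, CSF2RA and SDC1, and CSF2RB had no count in any library. CSF1R (62 counts over all 12 libraries), CSF3R (4), CRLF2, the TSLP receptor chain (9), and IL2RG (3) did not pass. CSF2RA and CRLF2 lie in the pseudoautosomal region, where the X and Y copies are alike. Counting of unique reads can miss some of theirs if the reference held both copies, which is not stated and was not tested. Between Prol and Sen(IR), 2 of the 5 rose and 1 fell, where 24.8% of all genes were called higher and 22.4% lower. CSF2RA passed the filter only through the senescent libraries without UK5099, which favoured its calls, and of the other 4 genes 1 rose and 1 fell. CSF2RA had no count in Prol and 10, 9 and 12 in Sen(IR), at least 3.96-fold higher. IL20RB, a chain of the IL-24 receptor, rose by 0.96 on the log2 scale (adjusted p = 0.00342). SDC1, a syndecan that also binds IL-34, fell by 1.08 (adjusted p = 1.63e-12).

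With UK5099 all 5 of these receptor genes were called lower than in Sen(IR), or 4 of 4 without CSF2RA, against 12.1% of all genes. IL7R was the most abundant of them by CPM, with 285, 278 and 277 CPM in Sen(IR) and 30.9, 27.7 and 26.2 CPM with UK5099. It fell by 3.31 on the log2 scale (SE 0.0656, adjusted p = 1.28e-20), to a level also 3.67 below Prol. IL15RA measured 15, 15.7 and 14.1 CPM in Sen(IR) and 3.52, 4.63 and 3.45 CPM with UK5099, a fall of 1.94 (SE 0.118, adjusted p = 7.40e-12). So the ligands TSLP, IL7 and IL15 and a chain of the receptor of each were lower in the same libraries. IL20RB fell by 2.5 (adjusted p = 1.24e-06), CSF2RA by 2.01 (adjusted p = 0.00408) and SDC1 by 0.51 (adjusted p = 2.34e-06). With CTPI2 0 of the 5 were called, and 0.166% of all genes were. IL7R measured 215, 227 and 233 CPM, below every Sen(IR) library but inside the fold limit (log2 −0.32, adjusted p = 0.00699).

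**Figure D4:**
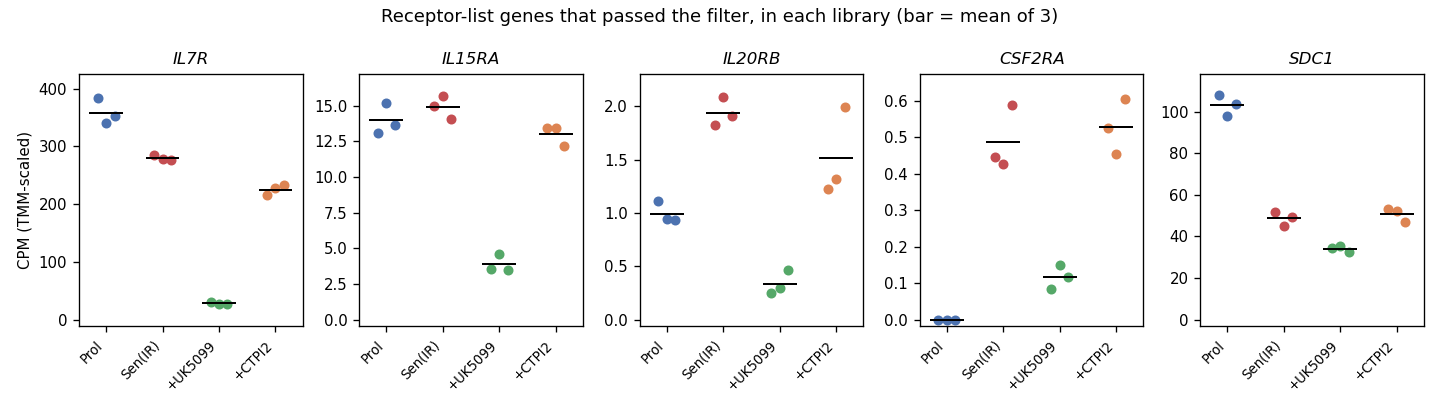
Level of the 5 receptor genes that passed the filter (vertical axis, TMM-scaled CPM on a linear axis with its own range per gene) in the 12 libraries, 3 points per group with a bar at the mean. IL7R lies between 26.2 and 30.9 CPM in the UK5099 libraries and at 215 CPM or above in all others.

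Of 29 further interleukins and blood growth factors 7 passed the filter, and 6 had no count at all. In Sen(IR) against Prol 2 rose and 1 fell, against 24.8% and 22.4% of all genes. IL11, a cytokine of the IL-6 receptor family, fell by 3.46 on the log2 scale, from 111 to 10.1 CPM (adjusted p = 3.74e-18), opposite in direction to the 7 members that rose. EBI3, which pairs with p35 in IL-35, had 0, 0 and 1 counts in Prol and 21, 11 and 10 in Sen(IR), a ratio of 48.4 (exact 95% counting interval 8.22 to 1955), and it passed the filter only through the senescent libraries without UK5099, which favoured its calls. IL17D rose by 0.63 (adjusted p = 0.000916), and 36.3% of its exon bases are shared with an antisense gene. With UK5099 0 rose and 5 fell, or 4 of 6 without EBI3, against 8.76% and 12.1% of all genes. EBI3 had 2, 2 and 0 counts (12.6-fold fewer, interval 4.58 to 48.5), FLT3LG, of whose exon bases 37.5% are shared with other genes, fell by 2.28 (adjusted p = 0.000334), IL11 by 2.21 (adjusted p = 4.52e-11) and KITLG, the stem cell factor, by 0.75 (adjusted p = 4.95e-09). With CTPI2 1 of 7 was called, against 0.166% of all genes. It was IL11, which measured 6.62, 5.07 and 7.22 CPM against 9.25, 10.1 and 10.8 in Sen(IR) (log2 −0.67, adjusted p = 0.00921). That call was lost without the second Sen(IR), the third Sen(IR) or the second CTPI2 library.

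The signalling genes downstream of these receptors did not share one direction. All 16 listed JAK, STAT, adaptor and feedback genes passed the filter. In Sen(IR) against Prol 4 rose and 5 fell, shares near the 24.8% and 22.4% of all genes. STAT4, which acts downstream of IL-12, rose by 1.80 on the log2 scale (adjusted p = 5.84e-05). The feedback inhibitors SOCS3 and SOCS2 fell by 1.10 (adjusted p = 7.28e-10) and 1.05 (adjusted p = 1.12e-07), and the kinase PIM1 fell by 0.91 (adjusted p = 3.27e-08). With UK5099 2 rose and 1 fell, namely JAK3 (0.71, adjusted p = 0.00212), the adaptor GAB2 (0.70, adjusted p = 5.13e-07) and SOCS2 (−0.59, adjusted p = 0.00106). These 3 of 16 are near the 20.8% of all genes called in either direction. With CTPI2 0 of 16 were called by edgeR, and 2 had an unadjusted p under 0.05. Of all genes tested 0.166% were called and 7.27% had an unadjusted p under 0.05.

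The genes whose pattern over the 12 libraries was most like that of a member were found by Pearson correlation of log2 CPM among 12139 genes, as a description. The points share 4 groups, so a high r reflects mostly the group means. For CSF1 the closest were IRF1 (r = 0.997), P4HA1 (0.993) and STC2 (0.992). For TSLP they were TNFSF18 (0.989), BDKRB2 (0.988) and FIBIN (0.986), and for IL12A PCDH9 (0.995), ATF3 (0.993) and ADAM23 (0.993). For IL32 they were LMF2 (0.991), MMP3 (0.983) and FAP (0.980). IL15 had fewer close neighbours, with DNAJC30 at 0.976 and 7 genes over 0.95 against 65 to 232 for the others.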

How the data were processed

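RNA was sequenced from 12 MRC5 libraries (2 × 150 bases). Per the methods and processing notes, the authors used Trimmomatic 0.36, STAR 2.5.2b (GRCh38) and featureCounts of Subread 1.5.2 on unique reads in exons. The deposited values are raw counts per gene, not normalized. Strand was used in counting only if the library kept it, which is not stated. Groups and columns followed the labels.

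Counts were tested in R 4.3.3 with edgeR 4.0.16 (filterByExpr, TMM, glmQLFit, glmQLFTest) in one group-only fit of all libraries, with Benjamini-Hochberg adjustment over the 16251 genes that passed the filter (0.423 CPM in 3 libraries). Replicates differed by 2.27 to 12.5 times sampling noise (chi-square per gene). In simulated Sen(IR) against Prol data of 15831 genes, edgeR recovered 77.8% of changes of log2 1 and 90.9% of log2 2.

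All 10 members are described. From the receptor, ligand and signalling lists, receptor chains and the called genes are named (at most the 4 largest per list and comparison), with IL12B added for its pairing with IL12A after its counts were seen. Members and lists were chosen with earlier results of these data known. Genes that passed the filter only with the help of Sen(IR) and CTPI2 libraries were identified after the data were seen. Positions and exon lengths came from GENCODE v44. Alternatives were other scalings, filters and limits, only the 2 compared groups, DESeq2 1.42.0, a replicate block, and leaving out each library.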

Additional observations from a re-analysis of the deposited data

How the results depend on the processing

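Counts of few reads limited CSF2, CSF3, IL34, IL7 and, with UK5099, IL24 and IL32, and Sen(IR) serves as reference for both inhibitors. With a fold limit of log2 1, the members called went from 7 to 5 in Sen(IR) against Prol (CSF1 and IL15 lost), from 9 to 6 in UK5099 against Sen(IR) and against CTPI2 (CSF1, IL15 and IL12A lost) and from 4 to 2 in UK5099 against Prol, the other ligands with UK5099 from 5 to 3 and with CTPI2 from 1 to 0, and the signalling genes from 9 to 3 in Sen(IR) against Prol and from 3 to 0 with UK5099. With no fold limit the signalling count with UK5099 was 6 and the receptor count with CTPI2 was 1 rather than 0, and at an unadjusted p under 0.05 the members called with CTPI2 were 1 rather than 0. Leaving out single libraries, the other ligands called with CTPI2 ran from 0 to 1. Over all genes, a limit of log2 1 gave 4030 calls (7677 at 0.5) in Sen(IR) against Prol, 1511 (3386) with UK5099, 11 (27) with CTPI2, 1417 (3236) between the inhibitors and 4967 (8632) in UK5099 against Prol. No fold limit gave 7384 with UK5099, 7227 between the inhibitors and 79 with CTPI2. With CTPI2 the count was also 46 with no filter, 296 at an unadjusted p, 16 without the third Sen(IR) library and 15 without the second CTPI2 library. Upper-quartile scaling moved the median of all genes by 0.121 (log2) in Sen(IR) against Prol and 0.14 in UK5099 against Prol, and there the log2 fold change of CSF1 turned to 0.0441. Without single libraries, IL15 in UK5099 against Prol ran from −0.0869 to 0.187, IL24 in Sen(IR) against Prol from −0.304 to 0.0275 and IL7 in CTPI2 against Sen(IR) from −0.225 to 0.286, none of them called. With no filter on low counts IL34, otherwise untested, passed in Sen(IR) against Prol (4.14, adjusted p = 0.00048), UK5099 against Sen(IR) (−3.42, adjusted p = 0.00283) and UK5099 against CTPI2 (−3.89, adjusted p = 0.000231), as fitted edgeR values that depend on the prior count. The cause of these shifts was not tested. Same-numbered libraries did not deviate together over all genes (r from −0.04 to 0.0423 over 15 pairs, 7 of 15 best with their own number). The labels do not say whether such samples share more than a number, and with 3 libraries per group these values cannot settle it. A replicate block gave 7649 calls in Sen(IR) against Prol and 3360 with UK5099, and it changed no call of a member.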
